A study of Mus musculus with 3 samples.

Results

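The expression of 10 interferon-induced GTPase genes was followed across the cell classes of the mouse retina at 3 ages: 7 genes of guanylate-binding proteins (Gbp2, Gbp3, Gbp4, Gbp5, Gbp6, Gbp7 and Gbp9) and 3 genes of immunity-related GTPases (Igtp, Irgm1 and Iigp1). They were taken by their symbols as members of these gene families, with earlier results of these data known, and all 10 were among the 32285 genes measured. The question asked was whether a pattern typical of interferon gamma accompanies the type I interferon genes in the aging retinal vasculature.

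The study examined retinas of C57BL/6JRj mice at 3 ages with no further treatment: young animals of 3 months, adult animals of 12 months and old animals of 23 months. At each age the retinas of a pair of animals were pooled, dissociated and enriched on magnetic beads for CD31, a surface protein of endothelial cells, and single-cell RNA sequencing was carried out in droplets. Each captured transcript carries a unique molecular identifier (UMI), so that the values are counts of transcripts per gene and cell. There was 1 library per age: animals were not resolved, no comparison of ages can be tested, and age and preparation cannot be told apart. All intervals below are 95% intervals for counting error only.

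Guanylate-binding proteins are large GTPases that assemble on the membranes of vacuoles holding bacteria or parasites and on the microbes themselves, and they promote inflammasome activation. Among the immunity-related GTPases, Iigp1 is an effector that is loaded onto such vacuoles, whereas Irgm1 and Igtp are regulators that protect the cell's own membranes from the effectors. Both groups are classical targets of interferon gamma, which signals through its receptor, JAK1 and JAK2 to gamma-activated sites in promoters and induces the transcription factor IRF1. Type I interferons act through JAK1 and TYK2 on interferon-stimulated response elements, and they induce many of the same GTPases, so that the GTPases alone do not tell the interferons apart.

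The promoters of the genes show this overlap in sequence. RefSeq promoter sequences on GRCm38.p6, from 250 bases before to 50 bases after the transcription start, were at hand for 6 of the 10 genes (Gbp2, Gbp3, Gbp5, Gbp7, Igtp and Irgm1). They were searched on both strands for the gamma-activated site TTCNNNGAA and for the paired IRF half-site GAAANNGAA, the core of the interferon-stimulated response element. The promoters of 4 genes are shown for the 150 bases before the start, with the matches to either motif in capitals. Gbp7 (chr3:142530186-142530335, plus strand) and Igtp (chr11:58199406-58199555, plus strand) hold both motifs. Gbp2 (chr3:142620513-142620662, plus strand) and Irgm1 (chr11:48871421-48871570, minus strand) hold the IRF half-sites and no gamma-activated site in this window.
Gbp7: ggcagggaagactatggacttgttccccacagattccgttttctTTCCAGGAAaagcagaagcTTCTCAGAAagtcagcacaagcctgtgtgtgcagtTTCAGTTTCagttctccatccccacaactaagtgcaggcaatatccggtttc
Igtp: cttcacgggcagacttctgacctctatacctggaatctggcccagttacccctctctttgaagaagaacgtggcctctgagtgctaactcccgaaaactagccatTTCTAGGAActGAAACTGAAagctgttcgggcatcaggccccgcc
Gbp2: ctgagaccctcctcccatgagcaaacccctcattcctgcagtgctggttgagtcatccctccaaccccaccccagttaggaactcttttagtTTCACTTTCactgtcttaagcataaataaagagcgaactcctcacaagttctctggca
Irgm1: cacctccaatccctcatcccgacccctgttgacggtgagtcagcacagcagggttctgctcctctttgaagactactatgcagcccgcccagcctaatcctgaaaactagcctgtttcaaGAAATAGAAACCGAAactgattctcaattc
The paired IRF half-site was found in 6 of the 6 genes, against 9.76% of the 27025 genes with promoters of the same length in the RefSeq table. The gamma-activated site was found in 3 of the 6, Gbp5, Gbp7 and Igtp, against 9.55% of all genes. Gbp3 has a second promoter in the table, which held neither motif. Those 3 promoters held both motifs, a combination present in 1.07% of all promoters, and no match of 1 motif overlapped a match of the other. In Igtp the gamma-activated site ended 37 bases before the start and the IRF half-site began 34 bases before it, so the pair lay next to each other. In Gbp7 the gamma-activated sites began 106 and 87 bases before the start and the IRF half-site 52 bases before it. These are matches of letters, not measured binding, and in so short a motif some arise without any function.

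The genes lie in clusters that bear on how reads could be assigned. On GRCm38 with GENCODE M21 annotation, Gbp5 (chr3:142493978-142522344), Gbp7 (chr3:142530342-142550149), Gbp3 (chr3:142560026-142573209) and Gbp2 (chr3:142620602-142638008) follow each other on the plus strand of chromosome 3. Gbp9 (chr5:105077630-105139539), Gbp4 (chr5:105115767-105139586) and Gbp6 (chr5:105270702-105293698) lie on the minus strand of chromosome 5. Irgm1 (chr11:48861968-48871683, minus strand) and Igtp (chr11:58199556-58207591, plus strand) are far apart on chromosome 11, and Iigp1 lies on chromosome 18. Gbp4 and Gbp9 overlap each other and Gbp8 on the same strand. Igtp overlaps Irgm2 (chr11:58199618-58222782) on the same strand, although the 3' end of Irgm2 lies beyond that of Igtp. The read length was not given in the sources used here, and windows of 91 bases, usual for this kit, were assumed. For Gbp6, 84.1% of such windows in the last 600 bases of its transcripts are also found in Gbp10 or Gm43302, against 4.76% for Gbp4, 0.267% for Gbp3 and none for the other 7 genes. The counts of Gbp6, Gbp4, Gbp9 and, through the overlap, Igtp are therefore uncertain as to which neighbor they stand for. Because UMIs tag the 3' end, levels are not divided by gene length, and levels are compared between samples and classes for the same gene only.

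The libraries held 16577026, 19977238 and 17021820 UMIs over all barcodes in young, adult and old retina, and 1705, 1957 and 1701 cells were kept. Between libraries, 0 to 3 cell barcodes were shared. Cells were clustered without the interferon genes, and clusters were named from marker genes. The endothelial class held 442, 417 and 398 cells with a median of 5642.5, 6091 and 7633 UMIs. All 10 endothelial markers were detected in it in each library, at a summed 11530, 11728 and 11463 UMIs per 1000000 UMIs of the class (CPM). A further 313, 251 and 220 droplets carried markers of both endothelial cells and pericytes, the contractile cells that wrap capillaries, and these were kept apart as mixed droplets. RNA of other cell types in the endothelial class moved with age. Summed pericyte markers stood at 1733, 1798 and 1094 CPM, Müller glia markers at 717, 855 and 1046 CPM and erythroid markers at 559, 906 and 1386 CPM. Microglial markers stood at 1.85, 2.98 and 1.37 CPM with Tmem119 at 0 in all libraries, and 1 of 8 markers of T and NK cells was seen, at 0.309, 0.298 and 0.550 CPM.

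In endothelial cells the GTPase genes were higher in the old than in the young library, and the adult library lay between them for most of the genes. Gbp2, which acts on bacterial and parasite vacuoles, stood at 71.4 CPM (62.5 to 81.2) in the young library, 90.7 CPM (80.8 to 101.5) in the adult and 118 CPM (107 to 130) in the old one. Gbp3 stood at 102 (91.3 to 114), 124 (112 to 136) and 177 CPM (164 to 191). For Gbp2 and for Gbp3 the old library was highest, and its interval did not overlap those of the other libraries. Old exceeded young 1.66 times (1.41 to 1.95) for Gbp2 and 1.74 times (1.52 to 1.99) for Gbp3. The ratio of adult to young was 1.27 (1.07 to 1.51) and 1.21 (1.05 to 1.40).

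Gbp4 stood at 54.4 (46.7 to 63.0), 63.0 (54.8 to 72.1) and 82.2 CPM (73.1 to 92.1), with the old interval above the others and the young and adult intervals overlapping. Gbp5, a guanylate-binding protein that promotes activation of the NLRP3 inflammasome, stood at 78.2 (68.8 to 88.4), 88.6 (78.8 to 99.3) and 101 CPM (91.3 to 112), and only the young and old intervals were apart. Old to young ratios were 1.51 (1.25 to 1.83) for Gbp4 and 1.30 (1.10 to 1.53) for Gbp5. Gbp6 rested on 29, 43 and 87 UMIs, or 8.96 (6.0 to 12.9), 12.8 (9.29 to 17.3) and 23.9 CPM (19.2 to 29.5). It had the highest old to young ratio of the 10 genes, at 2.67 (1.74 to 4.22), and the widest interval.

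Gbp7 stood at 159 (145 to 173), 198 (183 to 214) and 220 CPM (205 to 235), so that here the young library stood apart and the adult and old intervals overlapped. Its ratio was 1.25 (1.11 to 1.41) from young to adult and 1.11 (0.999 to 1.23) from adult to old. Gbp9 stood at 65.8 (57.3 to 75.3), 61.8 (53.6 to 70.8) and 70.9 CPM (62.5 to 80.1), and all 3 intervals overlapped. Its old to young ratio was 1.08 (0.895 to 1.30). Gbp9 was the 1 gene of the 10 whose old to young interval included 1, and it shares its locus with Gbp4.

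The immunity-related GTPases differed from each other in when they were higher. Igtp, also called Irgm3, stood at 43.9 CPM (37.0 to 51.7) in the young library, 39.4 CPM (33.0 to 46.7) in the adult and 77.0 CPM (68.2 to 86.5) in the old one. The young and adult intervals overlapped for Igtp, and the old library was 1.95 times the adult (1.58 to 2.42), the highest old to adult ratio of the 10 genes. Irgm1 stood at 81.6 (72.0 to 92), 85.0 (75.5 to 95.5) and 102 CPM (92.1 to 113), a ratio of 1.25 (1.07 to 1.47) between old and young. Iigp1 stood at 109 (98.3 to 121), 146 (133 to 159) and 185 CPM (172 to 200). It was the gene for which all 3 libraries stood apart, with ratios of 1.33 (1.16 to 1.53) from young to adult and 1.27 (1.13 to 1.43) from adult to old.

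**Figure D1:**
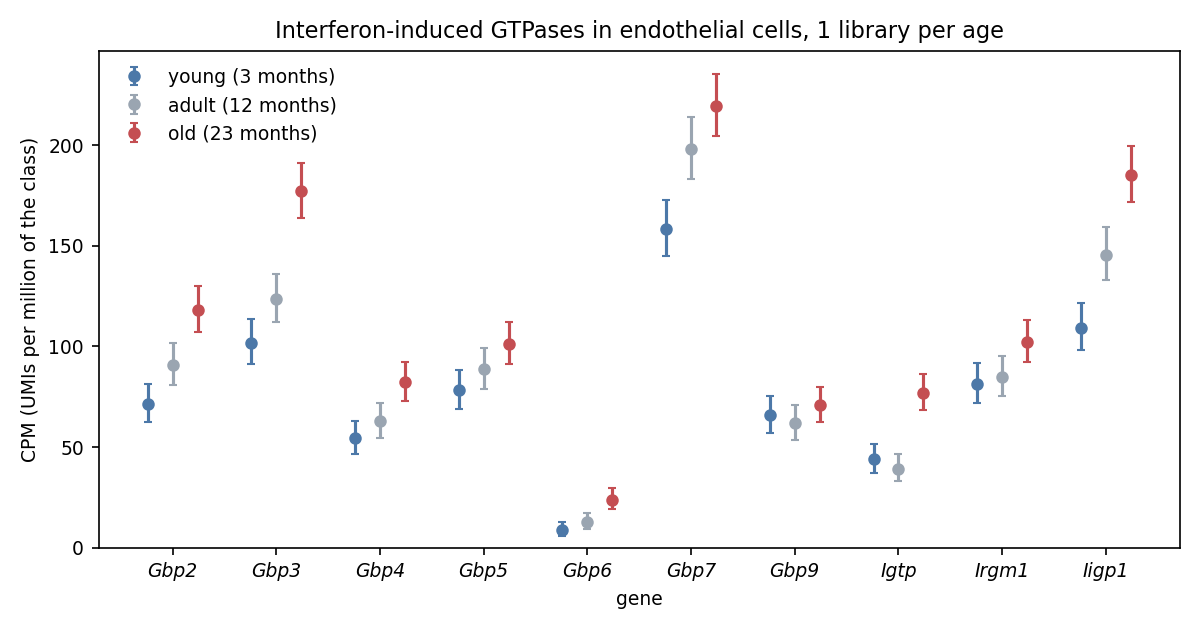
Level of each of the 10 GTPase genes in endothelial cells (y axis, CPM) by gene (x axis) in the young, adult and old library; points are the level in 1 library each and lines are exact 95% Poisson intervals for counting error. The old point is the highest for all 10 genes, by a ratio to young of 1.08 for Gbp9 up to 2.67 for Gbp6.

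All 10 genes had at least 30 UMIs over the libraries. In all, 6 of 10 (Gbp2, Gbp3, Gbp4, Gbp6, Igtp and Iigp1) were at least 1.5-fold higher in old than in young endothelial cells, as were 7.42% of the 10634 genes with as many UMIs. At 2-fold this was 1 of 10 (Gbp6), against 2.72% of all genes. The count was 4 with every cell thinned to 2000 UMIs and 5 with the mixed droplets added, against 9.55% and 5.45% of all genes. Gbp6, counted among the 4, had 29, 43 and 87 UMIs before thinning. In thinned cells it may reach 30 UMIs only with the old library, where it was highest. Gbp2 and Gbp4 stood at 1.47 and 1.44 in thinned cells, and with the mixed droplets Gbp4 and Iigp1 stood at 1.42 and 1.44 and Irgm1 at 1.55. The interval of the ratio lay above 1 for 9 of 10, against 11.2% of all genes, many of which had fewer UMIs and so wider intervals. From young to adult 0 of 10 passed 1.5-fold, against 5.48% of all genes, and 4 of 10 had an interval above 1 (Gbp2, Gbp3, Gbp7 and Iigp1), against 8.66%. From adult to old 2 of 10 passed (Gbp6 and Igtp), against 4.81%, and 7 of 10 had an interval above 1, against 6.71%. The 3 comparisons share libraries and are not independent of each other.

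Summed over the 10 genes, endothelial cells held 774 CPM (744 to 805) in the young library, 909 CPM (877 to 942) in the adult and 1158 CPM (1123 to 1193) in the old one. This was a ratio of 1.5 (1.42 to 1.57) between old and young, 1.17 (1.11 to 1.24) between adult and young and 1.27 (1.22 to 1.34) between old and adult. The endothelial class comprised a larger cluster with capillary genes and a smaller one with arterial genes. The capillary cluster stood at 760, 855 and 1163 CPM and the arterial cluster at 830, 1110 and 1144 CPM. In the capillary cluster most of the difference lay between adult and old, whereas in the arterial cluster it lay between young and adult, with ratios of 1.34 (1.20 to 1.5) for adult to young and 1.03 (0.938 to 1.13) for old to adult. With 1 library per age this difference between the clusters was not tested.

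The mixed droplets with pericyte genes gave a second view of endothelial RNA from the same libraries. Their summed level was 662, 635 and 946 CPM, a ratio of 1.43 (1.36 to 1.5) between old and young and 0.960 between adult and young. The interval of the old to young ratio lay above 1 for 8 of the 10 genes, against 11.0% of all genes in these droplets. For adult to young it lay above 1 for 0 of 10, against 8.03% of all genes, and below 1 for Iigp1, at 0.819. The sum was thus higher in old than in young in both sets of droplets, whereas the adult sum was above the young in the endothelial class and at 0.960 of it in the mixed droplets. In the low-UMI cluster with endothelial genes (63, 88 and 94 cells) the sum stood at 1033, 1055 and 1304 CPM, with a ratio of 1.26 (1.04 to 1.54).

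Müller glia, the radial glia of the retina, carried the genes at a lower level and in another proportion. The sum was 228, 196 and 273 CPM, a ratio of 1.20 (1.04 to 1.38) between old and young and 0.858 (0.742 to 0.992) between adult and young. Gbp6 was the exception to the order of the classes. It stood at 47.2 (37.3 to 59.0), 39.2 (30.9 to 49.1) and 63.4 CPM (51.5 to 77.2) in Müller glia, which was 5.27 (3.40 to 8.38), 3.05 (2.07 to 4.55) and 2.65 (1.97 to 3.58) times the endothelial level in the young, adult and old library. The other 9 genes were lower in Müller glia than in endothelial cells in every library. Müller markers in the endothelial class stood at 717, 855 and 1046 CPM against 18326, 18795 and 18992 CPM in Müller glia themselves, and their part in the endothelial Gbp6 counts was not tested. Because Gbp6 shares most of its 3' end with Gbp10 and Gm43302, the glial signal cannot be told apart from theirs.

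Iigp1 was the opposite case, with 4 UMIs in Müller glia in each library. Its Müller level was 0.0221, 0.0142 and 0.0138 times the endothelial level. Irgm1 was the 1 gene of the 8 passing the filter in Müller glia whose old to young interval lay above 1, at 24.8 (17.8 to 33.7), 25.8 (19.1 to 34.0) and 45.5 CPM (35.5 to 57.4) and a ratio of 1.83 (1.23 to 2.76). Among all genes in Müller glia 6.93% had such an interval. Of the 8, 2 passed 1.5-fold, against 8.99% of all genes. Gbp7 in Müller glia was lower in the adult than in the young library, at 70.9 (58.6 to 84.9) and 49.5 CPM (40.1 to 60.5), and stood at 66.6 CPM (54.4 to 80.7) in the old.

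**Figure D2:**
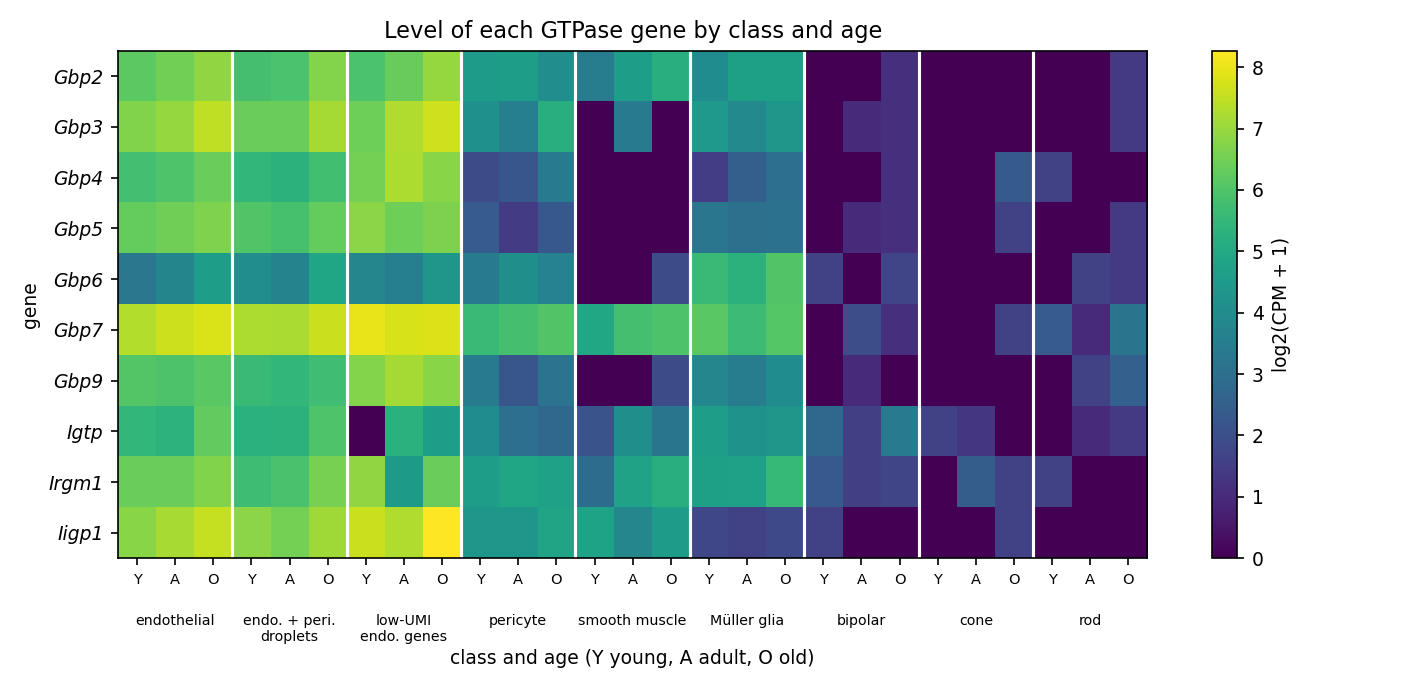
Level of each GTPase gene (rows) in 9 cell classes at young (Y), adult (A) and old (O) age (columns), colored by log2(CPM + 1). Endothelial cells, the mixed droplets and the low-UMI cluster with endothelial genes are brightest for most genes, whereas Gbp6 is brighter in Müller glia, where Iigp1 is dark, and bipolar cells, cones and rods are dark or nearly so for all 10 genes.

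Pericytes held 172, 171 and 206 CPM summed over the 10 genes, a ratio of 1.20 between old and young whose interval (0.915 to 1.57) included 1. It was 0.806 (0.484 to 1.30) once cells with 3 or more markers of another class were left out. At least 30 UMIs were present for 5 of the 10 genes. Of those, 1 (Gbp3) passed 1.5-fold, at 12, 6 and 18 UMIs, against 13.2% of all genes in pericytes, and it reached 30 UMIs only with the old library, where it was highest. With all pericytes kept, the type I genes were 1.94 times as high in old as in young (1.68 to 2.23). Their ratio without cells holding markers of another class was not computed. In smooth muscle cells the sum was 76.5, 145 and 170 CPM, a ratio of 2.22 (1.35 to 3.76) that rested on few UMIs. It was 6 (1.75 to 31.8) with cells thinned to 2000 UMIs, and 0.772 (0.0402 to 45.5) once cells with 3 or more markers of another class were left out. Gbp7 (9, 17 and 22 UMIs), Gbp2 (3, 7 and 13 UMIs) and Irgm1 (2, 8 and 13 UMIs) made up most of it, and Gbp4 and Gbp5 were at 0 UMIs in all libraries. Endothelial markers in smooth muscle cells summed to 36.6, 52.7 and 109 CPM over 11, 16 and 39 UMIs, and their part in the difference was not tested. Neurons were close to the limit of detection, with sums of 14.0, 9.69 and 19.9 CPM in bipolar cells, 2.03, 5.97 and 12.1 CPM in cones and 8.30, 6.04 and 21.1 CPM in rods.

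**Figure D3:**
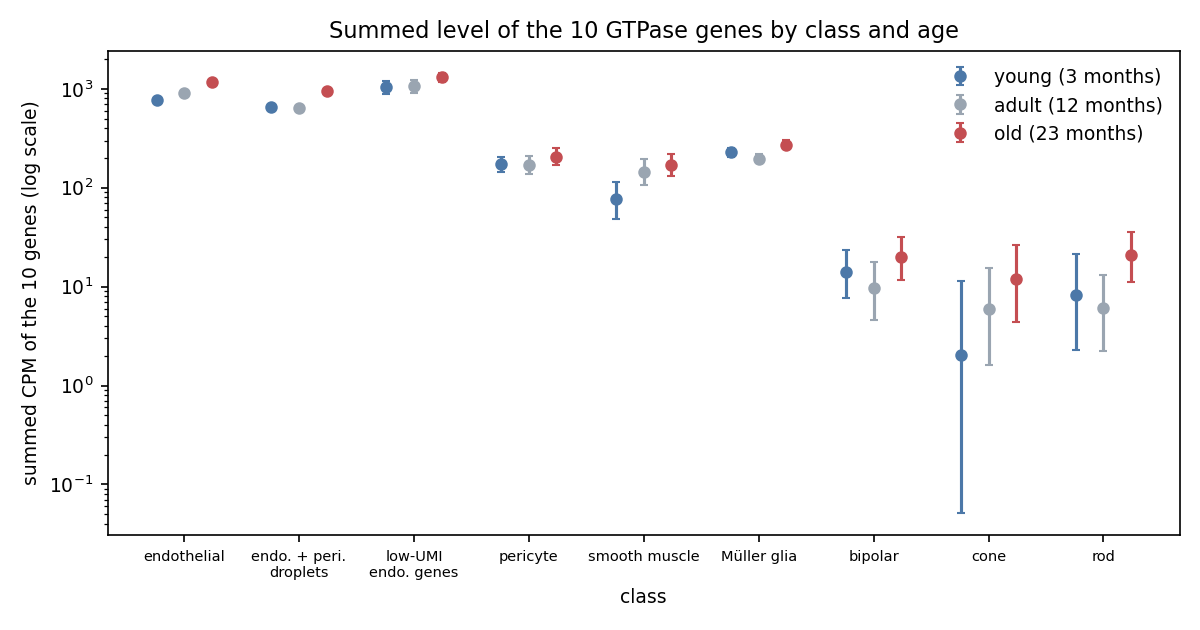
Summed level of the 10 GTPase genes (y axis, CPM, log scale) in 9 cell classes (x axis) in the young, adult and old library; points are 1 library each and lines are exact 95% Poisson intervals. Endothelial cells stand above pericytes, smooth muscle, glia and neurons, from 774 to 1158 CPM, Müller glia stand between 196 and 273 CPM, and rods do not exceed 21.1 CPM.

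The share of cells with a transcript and the number of transcripts per cell both bear on these sums. With every cell thinned to 2000 UMIs, a UMI of at least 1 of the 10 genes was held by 72.6% of young endothelial cells (68.1 to 76.7), 71.6% of adult cells (66.9 to 76.0) and 81.7% of old cells (77.5 to 85.4). Thinning left out 8, 19 and 4 shallower cells. Without thinning the shares were 91.9, 90.6 and 94.7%. In rods, used as background for free RNA, thinned shares were 0.952, 0.926 and 3.47%. In Müller glia they were 29.4, 22.3 and 39.8%, and in pericytes 19.4, 25.5 and 29.5%. The mean number of GTPase UMIs per thinned endothelial cell was 1.58, 1.74 and 2.39, and cells with 6 or more made up 2.53, 5.53 and 6.09%. The tenth of cells with the most GTPase UMIs held 32.5, 34.0 and 32.0% of them, a share that at so few UMIs per cell depends on counting error and on the mean.

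A single old endothelial cell stood apart from this spread. It held 135 GTPase UMIs of its 6455 UMIs (2.09%), against 76 in the next cell, and 3.21% of all GTPase UMIs of the old endothelial class. All 10 genes were present, led by Iigp1 with 38, Gbp5 with 25, Igtp with 19 and Gbp4 with 16 UMIs. The same cell held 318 UMIs of the type I list (4.93% of its UMIs, against a median of 0.304%), 102 UMIs of the chemokine gene Cxcl10 and 11 of Cd274, the gene of PD-L1, but none of Cxcl9 or Cd74. It carried 9 of 10 endothelial markers and no marker of pericytes, microglia, B cells or T and NK cells. Left out, together with the highest cell of the other libraries, it took 1 gene below 1.5-fold (Gbp4, at 1.42). Then 5 of 10 still passed, beside 7.42% of all genes with every cell kept.

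**Figure D4:**
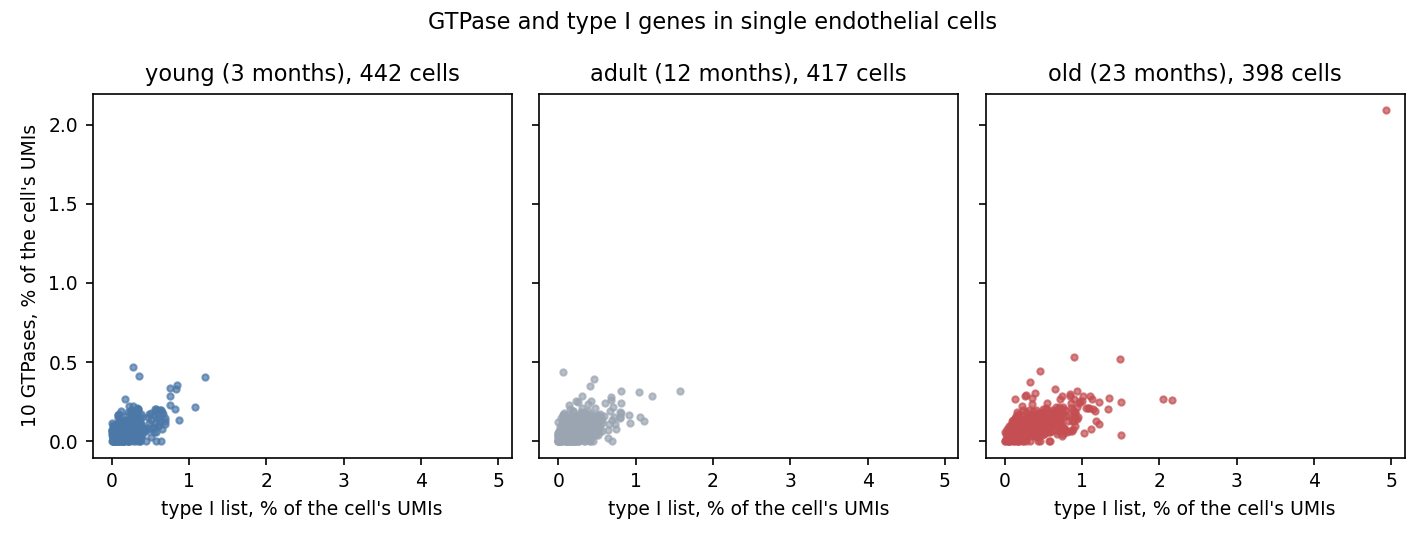
Share of each endothelial cell's UMIs from the 10 GTPase genes (y axis, percent) against the share from the type I gene list (x axis, percent); each point is 1 cell and the panels are the young, adult and old library. Most cells lie at low shares in all panels, and 1 old cell lies apart at 2.09% of GTPase and 4.93% of type I UMIs.

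Endothelial cells that held a GTPase transcript also held more type I transcripts on average than cells that held none. In cells thinned to 2000 UMIs and holding a GTPase UMI, the mean number of type I UMIs was 4.30, 5.15 and 9.22 in the young, adult and old library, against 3.08, 3.35 and 4.47 in cells with none. Spearman's rho between both numbers over 434, 398 and 394 cells was 0.289, 0.327 and 0.422. These are descriptions of cells within 1 library each, which share its preparation and free RNA.

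Lists of interferon genes were then set beside the GTPases in endothelial cells. The 20 genes of the type I list are those whose induction is more typical of type I interferon, such as Isg15, Ifit1 and Irf7. The gamma list of 16 measured genes holds those more typical of interferon gamma, such as Ciita, Cxcl9, Irf1 and the MHC class II genes, and a list of 15 genes, such as the MHC class I genes, responds to both. The median log2 ratio of old to young was 0.65 over the 10 GTPases, 0.88 over 19 type I genes with enough UMIs, 0.58 over the 15 shared genes and 1.09 over 12 gamma genes, beside 0.02 over all genes. Past 1.5-fold were 6 of 10, 15 of 19, 8 of 15 and 8 of 12, against 7.42% of all genes. In the gamma list Cxcl10, H2-DMa and H2-DMb1 fell short of 30 UMIs without the library where each was highest, as did Nlrc5 in the shared list. Without them the gamma list had 5 of 9 genes past 1.5-fold and a median of 1.00, and the shared list 7 of 14 and 0.56. Without the highest cell of each library the gamma median was 0.95 over 11 genes.

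Between adult and young the lists differed in another way. The median log2 ratio was 0.24 for the GTPases, 0.19 for the type I genes and 0.23 for the shared genes, with 0 of 10, 1 of 19 and 1 of 15 past 1.5-fold against 5.48% of all genes. It was 1.16 for the gamma genes, with 9 of 12 past 1.5-fold, but 0.57 with 6 of 9 past it without the 3 genes that depended on 1 library. From adult to old it was 0.36 for the GTPases, 0.72 for the type I genes and -0.08 for the gamma genes (-0.11 without those 3). The gamma median was the least stable of these values. Which gamma genes reached the filter also differed between settings. From adult to old the median was 0.49 over 6 genes in thinned cells, 0.45 over 10 without cells holding 3 or more markers of another class, 0.42 over 10 with cells assigned by their own markers and 0.27 over 14 with the mixed droplets added. For old to young it was 1.53 in thinned cells, 1.49 without cells holding markers of another class and 1.53 with cells assigned by their own markers. With the mixed droplets added it was 0.33 for old to young and -0.03 for adult to young, and in the mixed droplets alone it was 0.23 and -0.55, and the type I median for old to young was 0.92 and 0.98. Sums weight the abundant genes more than medians do. The summed gamma list stood at 152, 243 and 263 CPM in endothelial cells, an old to young ratio of 1.74 (1.56 to 1.94). In the low-UMI cluster with endothelial genes it stood at 245, 199 and 158 CPM, a ratio of 0.643 (0.401 to 1.03). The type I ratio there was 1.43 (1.24 to 1.65). In pericytes the gamma ratio was 1.02 (0.651 to 1.57), beside 1.94 (1.68 to 2.23) for the type I list. In the mixed droplets the summed gamma list stood at 213, 154 and 422 CPM, a ratio of 1.98 (1.82 to 2.15). The type I ratio there was 2.17 (2.11 to 2.24). Of 13 gamma genes with enough UMIs there, 7 were higher in old than in young and 6 lower, against 19 and 0 of the type I genes. The 6 MHC class II genes there stood at 85.8, 38.1 and 37.6 CPM. Which single genes or droplets carried the gamma sum was not examined.

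**Figure D5:**
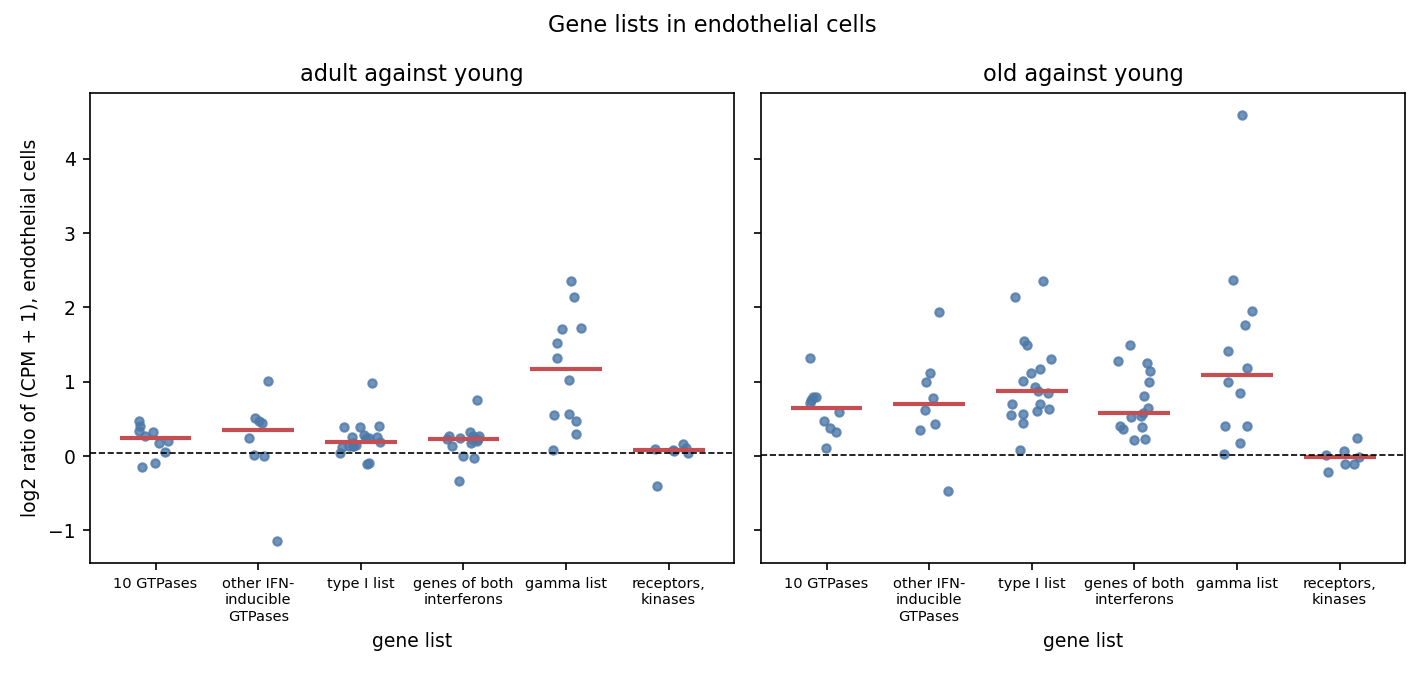
Log2 ratio of CPM + 1 in endothelial cells (y axis) for each gene with at least 30 UMIs in 6 gene lists (x axis), adult against young on the left and old against young on the right; points are genes, red lines are list medians and the dashed line is the median of all genes. The medians of the 10 GTPases stand at 0.24 and 0.65, of the type I list at 0.19 and 0.88 and of the gamma list at 1.16 and 1.09, with the receptors and kinases near the line of all genes.

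MHC class II genes, which present antigen to helper T cells, made up 6 of the 12 gamma genes. H2-Ab1 stood at 5.25, 19.7 and 23.1 CPM, a ratio of 4.4 (2.59 to 7.90) between old and young. Cd74, the invariant chain of MHC class II, stood at 5.87, 29.2 and 22.3 CPM, with 18 of its 19 young and 55 of its 98 adult UMIs in 1 cell each. Without the highest cell of each library 1, 43 and 75 Cd74 UMIs remained, and 14, 42 and 77 of H2-Ab1. H2-DMb1 rested on 1, 11 and 21 UMIs and H2-DMa on 6, 16 and 15. Antigen-presenting B cells had been captured in these preparations (10, 76 and 57 cells), and 1 droplet per library in the endothelial class carried B-cell markers. With all droplets kept, the summed level of 6 MHC class II genes was 20.4, 79.1 and 73.9 CPM, a ratio of 3.63 (2.76 to 4.82) between old and young and 0.935 (0.786 to 1.11) between old and adult. Without the droplets with B-cell markers it was 10.8, 44.9 and 71.6 CPM, a ratio of 6.60 (4.63 to 9.69) between old and young, and 6.12, 12.7 and 21.9% of endothelial cells held a UMI. In the mixed endothelial-pericyte droplets, with none left out, the level was highest in the young library, at 85.8, 38.1 and 37.6 CPM. In thinned cells the share with a UMI was 3.19, 3.19 and 9.09% in the mixed droplets, 2.53, 4.27 and 9.39% in endothelial cells and 1.76, 2.03 and 1.81% in Müller glia. In rods, as background, it was 0, 0.463 and 0.694%.

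The other gamma genes did not share 1 pattern. Cxcl10, a chemokine gene, had 1, 19 and 111 UMIs, of which 102 were in the single old cell described above. Without that cell and the cell with the most GTPase UMIs in each other library, 9 old UMIs remained against 1 young. This was a ratio of 7.96 with an interval from 1.10 to 349. Irf1, the transcription factor that carries much of the interferon gamma response, stood at 78.8, 83.3 and 80.0 CPM, a ratio of 1.02 (0.855 to 1.21) between old and young. Icam1, an adhesion molecule, stood at 23.8, 35.8 and 26.9 CPM, a ratio of 1.13 (0.831 to 1.55). Cd274 stood at 11.7, 16.7 and 28.0 CPM, a ratio of 2.39 (1.63 to 3.56). Ciita, the activator of MHC class II, Cxcl9 and Ido1 had 10, 1 and 3 UMIs over the libraries, too few to compare.

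The type I list was led by Oas2, a sensor of double-stranded RNA, at 5.25, 11.3 and 31.1 CPM, and by Ifi27l2a at 119, 156 and 526 CPM, ratios of 5.91 and 4.42 between old and young. Irf7, the transcription factor that amplifies type I interferon, stood at 118, 131 and 349 CPM, a ratio of 2.95, and Ifi44 at 52.2, 57.9 and 149 CPM, a ratio of 2.85. Lowest in the list were Rsad2, the gene of the antiviral enzyme viperin, at 145, 159 and 197 CPM, and Ddx58, the gene of RIG-I, at 56.6, 62.1 and 59.9 CPM, with ratios of 1.36 and 1.06. For Rsad2, 107 of the 717 old UMIs were in 1 cell. Without its highest cell in each library 456, 511 and 610 Rsad2 UMIs remained. Summed, the list stood at 1953, 2204 and 4109 CPM, a ratio of 2.10 (2.04 to 2.17), against 1.5 (1.42 to 1.57) for the 10 GTPases and 1.74 (1.56 to 1.94) for the gamma list.

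Among the genes of both interferons, Nlrc5, the activator of MHC class I, stood at 4.02, 2.98 and 13.2 CPM on 13, 10 and 48 UMIs and the peptide transporter Tap1 at 17.6, 30.4 and 43.2 CPM, ratios of 3.28 and 2.45. H2-K1 and B2m, which form MHC class I molecules, stood at 593, 695 and 1443 CPM and at 839, 1017 and 1848 CPM, ratios of 2.43 and 2.20. Tapbp, which helps to load peptides, and Parp14 were lowest, both at a ratio of 1.17 (1.03 to 1.34 for Tapbp and 0.994 to 1.37 for Parp14).

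Other interferon-inducible GTPase genes, 14 of which were measured and 8 of which had enough UMIs, had a median log2 ratio of 0.70 between old and young, with 5 of 8 past 1.5-fold, against 7.42% of all genes. Without 9930111J21Rik1, which reached 30 UMIs only with the young library, this was 0.78 with 5 of 7. Gm4951 was highest, at 12.1, 25.4 and 49.2 CPM, a ratio of 4.08 (2.87 to 5.93). The immunity-related GTPases Tgtp1 (8.34, 11.9 and 19.2 CPM) and Tgtp2 (18.2, 26.6 and 37.4 CPM), which are close copies of each other so that reads may be split between them, and Ifi47 (49.4, 67.7 and 85.5 CPM) had ratios of 2.31, 2.05 and 1.73. Lowest were 9930111J21Rik2, at 141, 168 and 180 CPM and a ratio of 1.28, and 9930111J21Rik1, at 6.49, 2.39 and 4.4 CPM on 21, 8 and 16 UMIs and a ratio of 0.678 (0.331 to 1.36). Gbp2b had no UMI in the endothelial cells of any library.

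Transcripts of the interferon genes looked up were not detected in endothelial cells. Interferon alpha genes other than Ifna4 were not looked up. The old to young ratios of the receptors and kinases lay between 0.852 and 1.18. No UMI of Ifng, Ifnb1, Ifna4, Ifnl2 or Ifnl3 was seen in endothelial cells, which at 3 counts allows up to 0.927, 0.895 and 0.825 CPM in the young, adult and old library. Over all cells, Ifng was seen as 3 UMIs in 2 adult cells of the cluster that mixed microglia with T and NK cells, and in none of the young or old cells. Cells with 3 or more markers of T and NK cells, the main source of interferon gamma, numbered 6, 18 and 3, or 0.352, 0.920 and 0.176% of all cells. Of the receptor genes, Ifngr1 stood at 64.3, 69.5 and 76.1 CPM (ratio of old to young 1.18, 0.986 to 1.42), Ifngr2 at 21.9, 16.4 and 18.7 CPM (0.852), Ifnar1 at 206, 232 and 192 CPM (0.930) and Ifnar2 at 299, 318 and 302 CPM (1.01). The kinases Jak1, Jak2 and Tyk2 had ratios of 0.994, 0.924 and 1.05. Of these 7 genes 0 passed 1.5-fold, against 7.42% of all genes.

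The genes most like the 10 GTPases across the retina were sought by Pearson's r of log2(CPM + 1) with the summed GTPase level over 27 points, 9 classes at 3 ages, among 12584 genes. The points of an age share a library, and the classes with endothelial genes hold the high points. The 8 highest were Id1 (0.978), B2m (0.978), Samd9l (0.977), Dap (0.976), Trim34a (0.972), Rapgef3 (0.972), Abcg2 (0.969) and Cachd1 (0.968). Of these, B2m, Samd9l and Trim34a are interferon-inducible genes, with old to young ratios of 2.20, 1.33 and 1.10 in endothelial cells, and Id1 had a ratio of 1.23. Abcg2, an efflux transporter of the blood-retina barrier, and Cachd1 had ratios of 0.999 and 0.752.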

How the data were processed

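Per library, the authors deposited a matrix of raw UMI counts (genes by cell barcodes), made with Cell Ranger 6.1.2 on mm10 per the submitters' processing notes; cell calling settings were not given in the sources used here. Barcodes with 500 to 6000 genes and 1 to 20% mitochondrial UMIs were kept, the limits that the study's methods state, and Scrublet doublets (scanpy 1.11.5) were removed (8, 17 and 12 cells). Cells were integrated and clustered in Seurat 5.3.0 (R 4.3.3; 2000 features without the interferon genes, 30 components, resolution 0.5). A name needed 3 markers, each in 20% of cells and at 25% of its highest cluster's level. Clusters with under 30 cells in any library were not compared.

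For each class and library, UMIs were added up per gene and scaled by the class total (CPM). Intervals are exact Poisson for levels, exact conditional for ratios and Clopper-Pearson for shares (Python 3.11.15, scipy 1.17.1, numpy 2.4.6) and cover counting error only. Log2 ratios used a pseudocount of 1 CPM, and ratios were counted for genes with at least 30 UMIs over the libraries. The ratio code was tested on simulated data. With 1 library per age no test between ages was run. Shares were taken after thinning each cell to 2000 UMIs. Gene identifiers matched GENCODE M21 (GRCm38) for 32235 of 32285.

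The 10 genes and the gene lists were chosen with earlier results of these data known. All 10 were described; from each other list the 4 highest and 2 lowest old to young ratios, genes without a UMI and every ligand and receptor were named, and other genes were named after their values were seen. Cxcl11, Gbp11, Gm12250, Mx1 and Mx2 were not among the symbols and were not analysed here. Leaving out the highest cell, the droplets with B-cell markers, and genes that reached the minimum through 1 library were alternatives added after seeing the data. Protein sequences were not used here.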

Additional observations from a re-analysis of the deposited data

Results flagged for a closer look

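The summed level of the 10 GTPases in adult against young differed in direction between classes: the ratio was 1.17 in endothelial cells and 1.89 in smooth muscle cells, but 0.858 in Müller glia. Gbp7 stood at 1.25 in endothelial cells and 0.699 in Müller glia for the same ages, and Iigp1 at 1.33 in endothelial cells and 0.819 in the mixed endothelial-pericyte droplets. In each case the intervals lay on opposite sides of 1, and with 1 library per age the differences were not tested.

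Cells outside the compared classes also held the genes at levels above those of rods. Old B cells stood at 248 CPM, on 61 UMIs with Igtp (13), Irgm1 (11) and Gbp4 (10) highest. The old mixed endothelial-erythroid droplets stood at 621 CPM and the adult cluster that mixed microglia with T and NK cells at 513 CPM. These clusters had under 30 cells in at least 1 library.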

How the results depend on the processing

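No paired analysis was possible because each age had 1 library and no result came from a test. Of 270 recomputed ratios of single genes in endothelial cells, 258 moved by less than their counting interval and 12 moved further, with no ratio past 1.5-fold changing direction. A setting among these put the marked doublets back. It left the endothelial list medians unchanged, so its ratios say nothing about stability. The count of genes past 1.5-fold between old and young was 4 to 6 over the alternatives at that fold and 1 at 2-fold. Between adult and young the count was 1 when thinned to 2000 UMIs (Gbp6, at 2.03), against 8.22% of all genes. Gbp6 may pass the filter there only through its old counts. Between old and adult the count was 4 with the mixed droplets added (Gbp2, Gbp3, Gbp6 and Igtp), against 3.39% of all genes. The summed old to young ratio in smooth muscle was 6 when thinned and 0.772 (0.0402 to 45.5) once cells with 3 or more markers of another class were left out, when few UMIs remained. Leaving out those cells gave 0.806 in pericytes, and assigning cells by their own markers gave 1.63 in the mixed droplets. Shares of endothelial cells with a GTPase UMI were 91.9, 90.6 and 94.7% without thinning and 48.9, 49.6 and 58.7% at 1000 UMIs. Subtracting free RNA took the all-gene median log2 ratio from 0.02 to 0.18 and the share of all genes past 1.5-fold to 24.4%, with 6 of the 10 genes still past it and their median at 0.66. Without the subtraction, that share was 4.26% among genes with at least 100 UMIs, and 2.72% of all genes were past 2-fold. After the subtraction rods gave no ratio, and the low-UMI cluster gave none when cells were assigned by their own markers.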

Other observations

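The retinal pigment epithelium cluster held 54 old cells but 1 young and 7 adult cells, and in the old cells the 10 genes summed to 137 CPM on 35 UMIs, of which Igtp gave 20 and Gbp3 11. In old B cells Iigp1 had no UMI, whereas Igtp, Irgm1 and Gbp4 were seen. In old amacrine cells all 10 GTPase UMIs came from 1 cell.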
